A study of Arabidopsis thaliana with 12 samples.

Results

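The transcriptome of Arabidopsis thaliana seedlings that lack both BRM and CLF was compared with that of wild-type Col. The comparison used 6 of the 12 arrays of the series, 3 of the brm-1 clf-29 double mutant and 3 of Col. Within it, attention was given to the genes whose mean signal differed from Col by at least 1.5-fold in brm-1 clf-29 but in neither single mutant. These numbered 976 of the 13355 genes measured, and the functional classes of the changed genes were examined beside them.

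BRM is the ATPase of a SWI/SNF complex, which uses ATP to move or evict nucleosomes, and it belongs to the Trithorax group that opposes gene silencing. CLF is a histone methyltransferase of Polycomb repressive complex 2 (PRC2), which places the repressive mark H3K27me3 on developmental genes. Loss of BRM is known to make plants small and early flowering, and loss of CLF is known to release floral regulators in leaves, so a plant that lacks both shows which transcripts respond when a remodeler and a silencing enzyme are removed together.

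All 4 genotypes (wild-type Col, the single mutants brm-1 and clf-29, and their double mutant) were sampled as whole seedlings at 14 days after growth in long days, with 3 biological replicates each. Both alleles are T-DNA insertions in the Col background, each a single line, and no group received a treatment. Total RNA was biotin-labelled and hybridised to Affymetrix ATH1 arrays, 1 sample per array. Values are log2 signals from MAS5, the scanner maker's summary of each probe set, so that a difference of 1 is a doubling.

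The array medians lay between 7.54 and 7.66, and 27 probe sets for bacterial RNA gave a background limit of 4.71, their 95th percentile. The 7 nuclear-encoded light-harvesting and photosystem proteins measured had Col means of 9.38 to 14.22; these proteins are markers of green tissue. The probe sets of BRM and CLF were not analysed here, so neither transcript was set beside the labels. The arrays of replicate 3 stood apart from those of replicates 1 and 2 in every genotype, along a first principal component that held 30.9% of the variance between arrays. The counts of called genes in each class are therefore given also from a fit with a term for replicate 3. In bulk seedlings, fewer cells of a type and less RNA per cell cannot be told apart.

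A gene was called when its adjusted p was under 0.05 in limma's moderated test (two-sided, Benjamini-Hochberg over all genes, 1 mean per genotype). In brm-1 clf-29, 321 genes rose (2.4% of those tested) and 346 fell (2.59%), and 2445 had an unadjusted p under 0.05. With the term for replicate 3, 732 rose (5.48%) and 821 fell (6.15%), and these included all 667 genes of the plain fit. With the replicate number as a block, 661 rose (4.95%) and 734 fell (5.5%). Of the 667 called genes, 557 also differed by at least 1.5-fold, the criterion of the study, which carries no test. Of 97 called genes that the naming rule took, not all of them described here, 45 stayed called when each array of Col and brm-1 clf-29 was left out in turn. Leaving out Col replicate 2 ended the most of these calls, 46, and leaving out brm-1 clf-29 replicate 3 the fewest, 14.

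The 5 genes with the lowest adjusted p in each direction that met the naming rule were all past 1.5-fold in brm-1 too. Genes whose brm-1 clf-29 and Col arrays overlapped had been left out of this choice. PRX25 (AT2G41480), a class III peroxidase of the cell wall, gave 6.15, 6.04 and 5.95 in Col and 9.34, 9.16 and 9.20 in brm-1 clf-29. All 3 mutant arrays lay far above all 3 Col arrays, a rise of 3.19 ± 0.13 (SE, n = 3 per genotype, limma adjusted p = 6.71e-08), or 9.11-fold. Against the same Col arrays PRX25 was higher by 2.53 in brm-1 and by 1.91 in clf-29. RING1, a RING-finger ubiquitin ligase, gave 10.20, 10.47 and 10.49 in Col and 7.94, 7.90 and 8.29 in the double mutant. It fell by 2.34 ± 0.14 (SE, adjusted p = 2.36e-06), or 5.07-fold. ECS1, a gene named for its link to susceptibility to a leaf pathogen, gave 14.19, 14.16 and 14.46 in Col against 11.82, 12.03 and 11.06, and fell by 2.63 ± 0.22 (SE, adjusted p = 4.9e-05).

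In brm-1 clf-29, 1773 genes (13.3%) lay at least 1.5-fold above Col and 1973 (14.8%) at least as far below it. In brm-1 the same criterion took 1500 genes (11.2%) higher and 1686 (12.6%) lower, and in clf-29 1796 (13.4%) and 1369 (10.3%). The 3 comparisons share the Col arrays. Of the 3746 genes past the criterion in the double mutant, 2770 were past it in at least 1 single mutant, and 976 (26.1%) were past it in the double mutant alone.

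Of the 976 genes, 396 were higher (2.97% of all genes) and 580 lower (4.34%). Since the genes were chosen by these values, what follows on them is a description and the adjusted p of a member is no independent support. The median difference from Col was 0.79 among the higher genes and -0.84 among the lower ones. Many of these genes were dim: in 139 of the higher and 185 of the lower genes both means lay under the background limit. The arrays of brm-1 clf-29 and Col did not overlap for 187 of the higher genes and 265 of the lower ones, where 11.0% and 12.8% of all genes were separated in those directions. Only 156 of the 976 genes were called, 77 higher and 79 lower. With the term for replicate 3, 146 higher and 188 lower genes were called.

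The criterion divided a continuous range. Among called genes that passed it in neither single mutant, the last gene inside was AT5G58330 at 0.59 and the first outside was AT1G19450 at 0.58. On the lower side AT2G27090 at -0.59 was the last inside and AT4G14500 at -0.58 the first outside. Called genes under 1.5-fold in all 3 mutants numbered 65 on the higher side and 38 on the lower side, beside the 77 and 79 that passed. The medians of the 77 higher genes were 0.75 in the double mutant, 0.43 in brm-1 and 0.35 in clf-29. For the 79 lower genes they were -0.74, -0.35 and -0.28. All 3 differences subtract the same Col arrays and were used to choose the genes, so no relation between them is read from these medians.

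Few members differed from a single mutant by a test. In the same fit 2 higher and 2 lower genes of the set differed from brm-1, where 0.157% of all genes were called higher and 0.0599% lower. From clf-29, 10 higher and 18 lower genes of the set differed, where 0.487% and 0.981% of all genes were called. At an unadjusted p under 0.05, 1305 of all genes (9.77%) differed from brm-1 and 1723 (12.9%) from clf-29, and with the term for replicate 3 the adjusted test called 253 (1.89%) and 605 (4.53%). The interaction, which asks whether the double mutant departs from the sum of the 2 single differences, gave 0 calls in limma (0.0%), with 754 genes (5.65%) at an unadjusted p under 0.05. Of the 976 genes, 7 of the higher and 31 of the lower ones reached that unadjusted level, and the lowest adjusted p was 0.669.

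With the term for replicate 3 the interaction had 4 calls (0.03%), none of them among the 976 genes. All 4 had the same adjusted p of 0.0366. AT3G05730 was at 12.46 ± 0.01 (SD, n = 3) in Col, 12.79 ± 0.11 in brm-1, 9.99 ± 0.61 in clf-29 and 12.31 ± 0.12 in brm-1 clf-29. Its low level in clf-29 was thus absent from the double mutant, an interaction of 1.98 ± 0.28 (SE). PRX25 (AT2G41480) rose by less than the sum of its single differences, 3.19 against a sum of 4.44. RING1 and AT5G52810 fell by less than the sum, with interactions of 1.24 ± 0.18 and 1.63 ± 0.24.

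**Figure D1:**
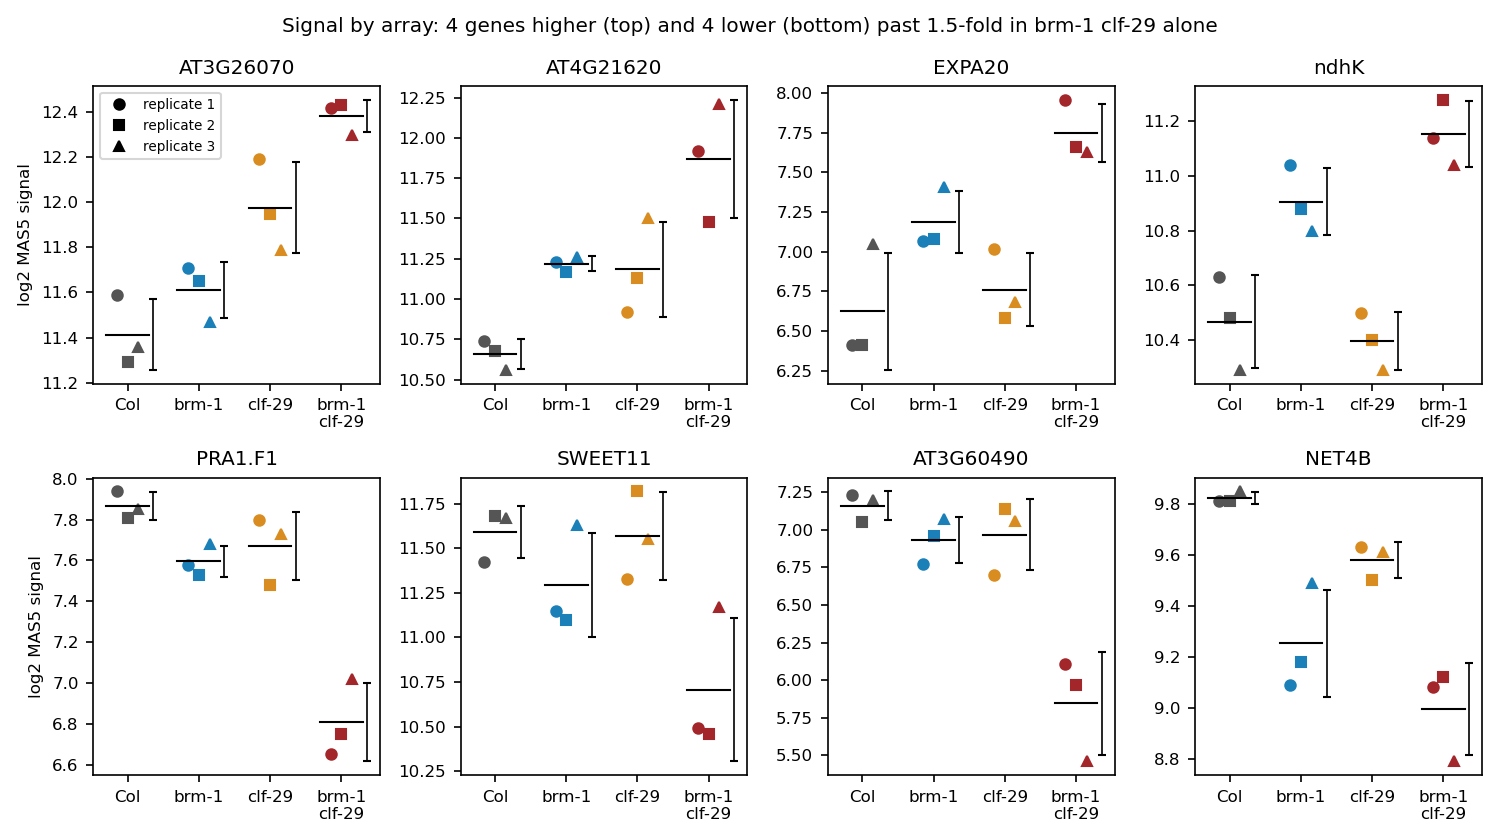
Log2 MAS5 signal of 8 genes past 1.5-fold in brm-1 clf-29 alone, with 1 symbol per replicate, for each of the 4 genotypes; the upper 4 genes are higher and the lower 4 lower in the double mutant. In each panel the 3 brm-1 clf-29 arrays lie on 1 side of the 3 Col arrays, as for PRA1.F1 with 6.65 to 7.02 against 7.81 to 7.94. The naming rule required this of all the genes shown except ndhK and NET4B, so it is no result for those genes.

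Among the higher genes of this set, AT5G57785 had the largest rise that met the naming rule. It gave 10.58, 10.44 and 10.14 in Col and 12.06, 11.94 and 11.22 in brm-1 clf-29, a difference of 1.35 ± 0.29 (SE, adjusted p = 0.019), with 0.58 in brm-1 and 0.55 in clf-29. By their means, its single mutants lay between Col and the double mutant. This call was lost without any 1 of 4 arrays, with an adjusted p of 0.0625 to 0.0849. AT4G21620 gave 10.74, 10.68 and 10.56 in Col and 11.92, 11.48 and 12.21 in the double mutant (1.21 ± 0.17, adjusted p = 0.00202). AT3G26070 gave 11.59, 11.29 and 11.36 against 12.42, 12.43 and 12.30 (0.97 ± 0.12, adjusted p = 0.000785), and it also lay 0.77 above brm-1 (adjusted p = 0.0276). Its probe set can also read related transcripts. Both AT4G21620 and AT3G26070 stayed called without any single array.

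EXPA20, an expansin that loosens cell walls during growth, gave 6.41, 6.41 and 7.05 in Col, 7.07, 7.08 and 7.41 in brm-1, 7.02, 6.58 and 6.68 in clf-29 and 7.96, 7.66 and 7.63 in brm-1 clf-29. Every double mutant array was above every array of the other 3 genotypes, and the difference from Col was 1.13 ± 0.22 (SE, adjusted p = 0.0124). It lost the call without Col replicate 1 or 2 or double mutant replicate 1, where the adjusted p was 0.0556 to 0.0608. AT4G36700, chosen after its values were seen, was the only 1 of the 976 genes that differed from both single mutants. It read 0.97, 1.32 and 1.82 in Col, all under background, and 5.19, 4.99 and 5.5 in brm-1 clf-29. The rise was at least 1.43-fold (adjusted p = 0.00558), and the adjusted p was 0.0407 against brm-1 and 0.0303 against clf-29.

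Among the lower genes, AT3G60490 gave 7.23, 7.05 and 7.20 in Col and 6.11, 5.97 and 5.46 in brm-1 clf-29. It fell by 1.31 ± 0.22 (SE, adjusted p = 0.00581), with -0.23 in brm-1 and -0.19 in clf-29. PRA1.F1, a member of the prenylated Rab acceptor family that acts in vesicle traffic, gave 7.94, 7.81 and 7.85 in Col, 7.58, 7.53 and 7.68 in brm-1, 7.80, 7.48 and 7.73 in clf-29 and 6.65, 6.75 and 7.02 in the double mutant. The single mutants sat slightly under Col and the double mutant well under both. Its fall was 1.06 ± 0.15 (SE, adjusted p = 0.0021), and the call remained without any single array. SWEET11, a sucrose exporter that loads the phloem in leaves, gave 11.42, 11.68 and 11.67 in Col and 10.49, 10.46 and 11.17 in brm-1 clf-29, and fell by 0.88 ± 0.20 (SE, adjusted p = 0.0251). In clf-29 SWEET11 was at -0.02 and in brm-1 at -0.30. Its call was lost without any 1 of 5 arrays, with an adjusted p of 0.051 to 0.108.

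The remaining genes that met the naming rule bore only a locus code. The 8 others on the higher side ranged from 0.96, in AT4G16563, to 1.18 in AT5G02540. The 9 others on the lower side ranged from -0.87 in AT1G05310 to -1.14 in AT1G54540. AT4G16563 was at 0.11 in each single mutant and 0.96 ± 0.25 in the double mutant (adjusted p = 0.0465, up to 0.167 without 1 array).

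**Figure D2:**
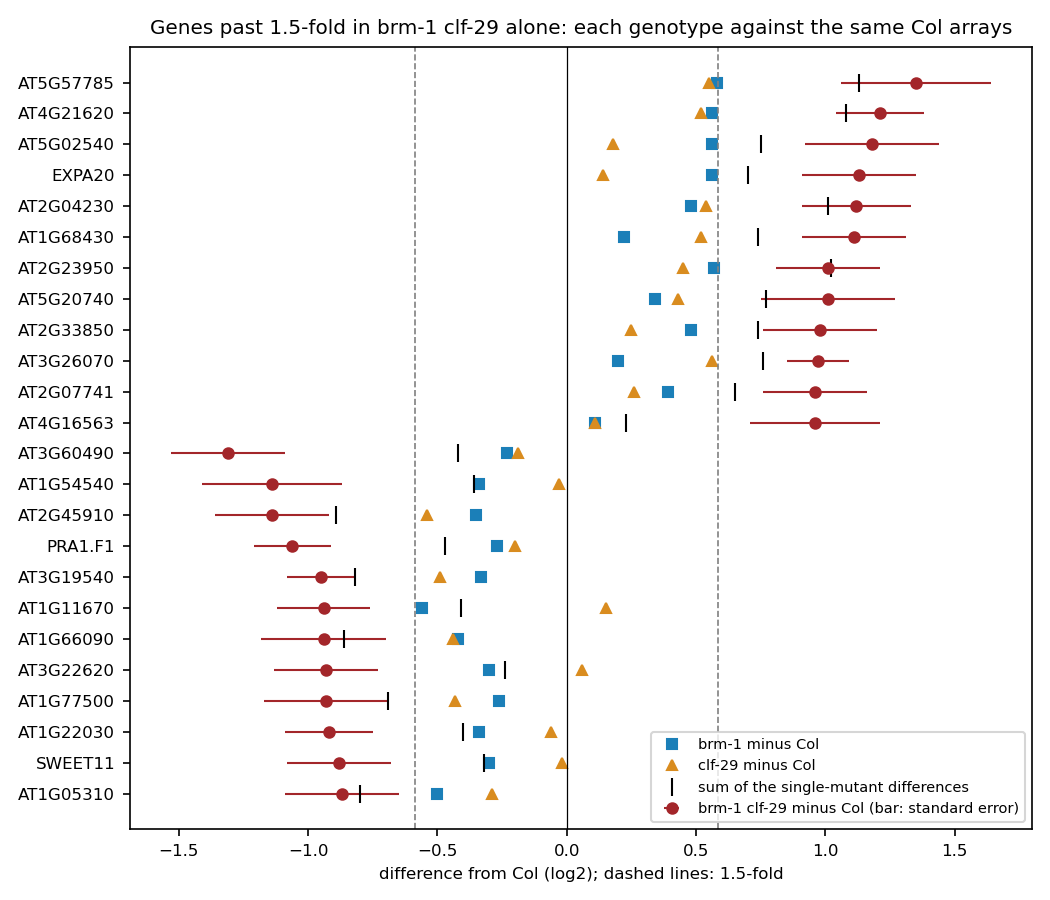
Log2 difference from Col in brm-1 clf-29 (circle with standard error), brm-1 (square) and clf-29 (triangle), and the sum of the single differences (tick), for the named genes past 1.5-fold in the double mutant alone; dashed lines mark 1.5-fold. Circles lie past the dashed lines and the single mutants inside them, as for SWEET11 at -0.88, -0.30 and -0.02.

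Of the 156 called genes of the set, 22 had a symbol other than the locus, 12 higher and 10 lower, and these were read together after their values were seen. Chloroplast genes stood among the higher ones: ndhK and ndhD, subunits of the NDH complex that cycles electrons around photosystem I, their nuclear-encoded partner NdhL, and rbcL, the large subunit of Rubisco. In brm-1 ndhK and ndhD were each at 0.44, NdhL at 0.58 and rbcL at 0.54. In brm-1 clf-29 NdhL was at 0.65 and rbcL at 0.61, close to their brm-1 levels, while ndhK was at 0.69 and ndhD at 0.70. In clf-29 ndhK was at -0.07, ndhD at -0.02, NdhL at 0.37 and rbcL at 0.26. HL, a HAL2-like phosphatase, was at 10.05 ± 0.04 (SD, n = 3) in Col and 10.71 ± 0.11 in brm-1 clf-29, with no overlap (0.66, adjusted p = 0.0014). Its difference from Col was 0.38 in brm-1 and 0.41 in clf-29. CLE41, a peptide that keeps vascular stem cells dividing, rose by 0.70 (adjusted p = 0.0286). It was at 0.46 in brm-1 and 0.51 in clf-29, and the double mutant lay only 0.19 above clf-29 (adjusted p = 0.724). AUR2, an Aurora kinase of the cell division plane, rose by 0.65 (adjusted p = 0.0286), with an adjusted p of up to 0.109 without 1 array. AUR2 was at 0.18 in brm-1 and 0.14 in clf-29.

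The 10 lower genes with a symbol included PRA1.F1 and SWEET11, described above. NET4B, an actin-binding protein of the Networked family, gave 9.81, 9.81 and 9.85 in Col and 9.08, 9.12 and 8.79 in brm-1 clf-29. It fell by 0.83 ± 0.12 (SE, adjusted p = 0.00225). NET4B was also called lower in brm-1, at -0.57 (adjusted p = 0.0345), just inside the 1.5-fold criterion. The double mutant lay only 0.26 below brm-1 (adjusted p = 0.525). TUB5, a beta-tubulin, fell by 0.65 (adjusted p = 0.00809), and PRA1.B4 by 0.61 (adjusted p = 0.0261). In brm-1 and clf-29 TUB5 was at -0.39 and -0.51, and PRA1.B4 at -0.23 and -0.49. NET1B, of the same family as NET4B, rose by 0.63 (adjusted p = 0.0385), with 0.37 in brm-1 and 0.36 in clf-29. Over 23 Networked and tubulin proteins, a list added after the data were seen, 2 rose and 3 fell (2.4% and 2.59% of all genes). The term for replicate 3 left these counts the same (5.48% and 6.15% of all genes). The replicate block gave 3 higher and 3 lower, and setting array medians equal gave 2 and 2. Fes1C fell by 0.78 (adjusted p = 0.00643), and the expansin EXPA9 by 0.59 (adjusted p = 0.0414). Fes1C was at -0.31 in brm-1 and -0.52 in clf-29, and EXPA9 at -0.39 and 0.04. EXPA9 thus moved opposite to EXPA20 of the same family. Without 1 array the adjusted p of PRA1.B4 reached 0.104 and that of EXPA9 0.151.

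The choice of genes was also made on replicates 1 and 2 alone and read in replicate 3, which has 1 array per genotype and allows no test. Of 402 genes chosen as higher, 281 (69.9%) were above Col in replicate 3, against 48.1% of all genes. Their median fell back from 0.76 in the arrays that chose them to 0.37. Of 610 genes chosen as lower, 419 (68.7%) were below Col in replicate 3, against 51.2% of all genes, and their median went from -0.83 to -0.26. Membership itself repeated less often. In replicate 3, 41 (10.2%) of the higher and 69 (11.3%) of the lower genes again passed 1.5-fold in the double mutant alone, where 3.05% and 4.4% of all genes did. Among genes brighter than the median the same sign was seen for 84.3% of 166 higher genes and 87.7% of 204 lower ones, a reading added after seeing the data.

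**Figure D3:**
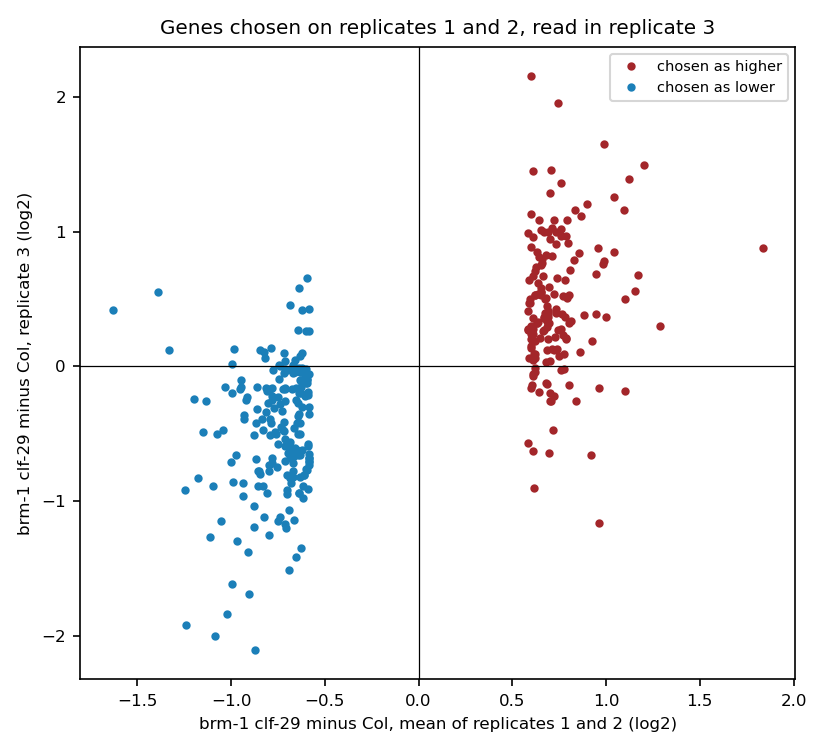
Each point is a gene brighter than the median and chosen on replicates 1 and 2 as past 1.5-fold in brm-1 clf-29 alone. The x axis is its mean log2 difference from Col in those replicates and the y axis its difference in replicate 3. Of the 166 genes chosen as higher 84.3% lie above 0 on the y axis. Of the 204 chosen as lower 87.7% lie below it.

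Plastid-encoded genes, a list added after the data were seen, lay almost entirely on 1 side of Col. Their products build the photosynthetic complexes, the plastid ribosome and the plastid RNA polymerase. All 69 measured genes lay between -0.15 and 0.90 in brm-1 clf-29, and 66 (95.7%) were above 0, against 47.9% of all genes. Their median was 0.33, beside -0.02 over all genes, 0.22 in brm-1 and -0.06 in clf-29. It was 0.25 in replicates 1 and 2 and 0.44 in replicate 3. By the test 5 rose and 0 fell (2.4% and 2.59% of all genes), and with the term for replicate 3 or with the replicate block 18 rose and 0 fell. With each array's median set equal 15 rose and 0 fell. These genes share 1 genome and are transcribed in long units, so they are not independent of each other.

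ndhK gave 10.63, 10.48 and 10.29 in Col, 11.04, 10.88 and 10.80 in brm-1, 10.50, 10.40 and 10.29 in clf-29 and 11.14, 11.28 and 11.04 in brm-1 clf-29. The clf-29 arrays lay at or slightly under the Col arrays of the same number, while brm-1 and brm-1 clf-29 lay above both. The rise was 0.69 ± 0.11 (SE, adjusted p = 0.00466), and the double mutant also exceeded clf-29 by 0.76 (adjusted p = 0.00573). rbcL gave 11.55, 11.71 and 11.39 in Col and 12.24, 12.17 and 12.06 in the double mutant (0.61, adjusted p = 0.0135). It was also called higher in brm-1 (0.54, adjusted p = 0.0436), and the double mutant lay only 0.06 above brm-1 (adjusted p = 0.916). ndhD rose by 0.70 (adjusted p = 0.0373), atpA by 0.48 (adjusted p = 0.0398) and atpH by 0.40 (adjusted p = 0.0407), the last pair being subunits of the ATP synthase. The call of ndhK held without any single array. Without 1 array that of rbcL had an adjusted p of up to 0.0609, that of ndhD up to 0.137 and that of atpA up to 0.149.

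**Figure D4:**
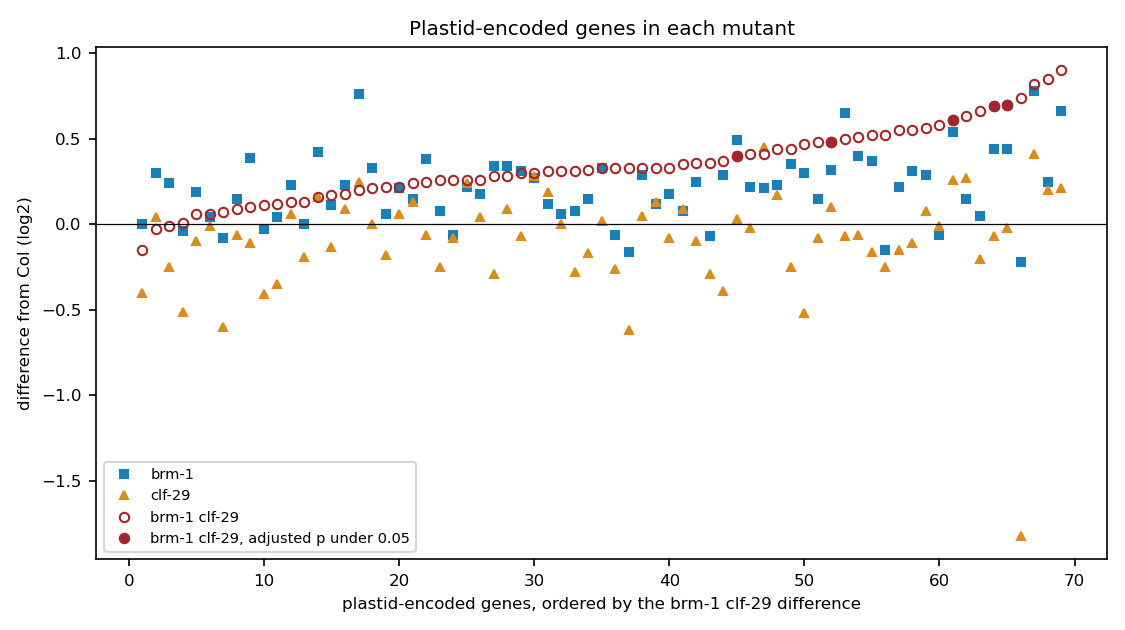
Log2 difference from Col of the 69 plastid-encoded genes, ordered by their value in brm-1 clf-29 (circles, filled where the adjusted p was under 0.05), with brm-1 as squares and clf-29 as triangles. The double mutant lies above 0 for 66 genes, brm-1 for 57 and clf-29 for 26.

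For the other photosynthesis lists and the classes that follow, the shares of all genes called were 2.4% higher and 2.59% lower, and 5.48% and 6.15% with the term for replicate 3. Over 17 measured subunits of the plastid NDH complex, encoded in either genome and listed after the data were seen, 3 rose and 0 fell, with a median of 0.44. With the term for replicate 3 or the replicate block, 8 rose and 0 fell. The 7 light-harvesting and photosystem proteins had 0 calls in either fit and a median of 0.22. SBPASE, an enzyme of the Calvin cycle, was the only called gene of 3 measured in that class, and 2 rose with the term.

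Detoxification and specialised metabolism held several calls. Of 13 glutathione transferases, which conjugate glutathione to reactive compounds, 5 rose and 0 fell, with a median of 0.07. The term for replicate 3 gave 6 higher and 1 lower, and the replicate block 5 higher and 1 lower. GSTU20, which also acts in glucosinolate synthesis, gave 11.93, 12.04 and 12.06 in Col and 12.67, 12.79 and 12.93 in brm-1 clf-29, a rise of 0.79 ± 0.14 (SE, adjusted p = 0.00701). The arrays were far apart and the call held without any single array. GSTF4 rose by 0.99 (adjusted p = 0.00823), GSTU16 by 0.76 (adjusted p = 0.0281) and GSTL3 by 0.50 (adjusted p = 0.0322). GSTU15, in Col under background, rose at least 1.19-fold (adjusted p = 0.0323). Of 5 glucosinolate genes 2 rose in either fit, GSTU20 and AOP1, a side-chain modifying dioxygenase (1.09, adjusted p = 0.0157). Without 1 array the adjusted p reached 0.108 for GSTU16, 0.122 for GSTL3 and 0.0535 for AOP1.

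UDP-glycosyltransferases, which attach sugars to hormones and secondary metabolites, went both ways, with 3 of 48 higher, 3 lower and a median of -0.19. The term for replicate 3 gave 6 higher and 8 lower, as did the replicate block. Setting array medians equal gave 4 higher and 1 lower. UGT84A1 rose at least 1.95-fold (adjusted p = 0.00737) and UGT73C1 at least 2.51-fold (adjusted p = 0.0102). Both were under background in Col, and their mean signals in clf-29 were 5.24 ± 0.72 and 5.15 ± 1.18 (SD, n = 3), above the background limit. UGT84A3 fell by 0.97 ± 0.19 in the double mutant, while it was at -1.77 in brm-1 and 1.18 in clf-29. Its call (adjusted p = 0.0122) was lost without Col replicate 2 (0.0595) or Col replicate 3 (0.0517). Of 22 beta-glucosidases, a list added after the data were seen, 3 rose and 2 fell with or without the term. Once array medians were set equal, 3 of them rose and 1 fell. BGLU45, of the group that acts on lignin precursors, rose by 2.2 ± 0.28 (SE, adjusted p = 0.000785) and BGLU16 fell by 0.73 (adjusted p = 0.0053).

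Sugar transport and starch genes also split. SAG29, a SWEET transporter named for its rise in senescing leaves, gave 6.22, 6.28 and 7.22 in Col and 10.41, 10.11 and 8.90 in brm-1 clf-29, where replicate 3 showed the smallest gap. It rose by 3.23 ± 0.41 (SE, adjusted p = 0.000764), with 2.60 in brm-1 and 1.47 in clf-29. Of 20 sugar transporters 1 rose, SAG29, and 2 fell, SWEET11 and the vacuolar transporter TMT1 (-0.50, adjusted p = 0.0324). Under the term for replicate 3, and equally under the replicate block, 4 rose and 4 fell. Once array medians were set equal, 1 transporter rose and 1 fell. Among 9 starch and sucrose genes 2 rose and 1 fell, and 3 rose and 1 fell with the term or the block. The branching enzyme SBE2.2 rose by 0.55 (adjusted p = 0.017) and APL3, a subunit of ADP-glucose pyrophosphorylase, by 1.52 (adjusted p = 0.0385). AMY1, an alpha-amylase, fell by 2.09 ± 0.52 (SE, adjusted p = 0.0379), beside -2.58 in brm-1 and 0.00 in clf-29. The call of AMY1 was lost without any 1 of the 6 arrays (adjusted p up to 0.124), and without 1 array the adjusted p reached 0.117 for TMT1, 0.0852 for SBE2.2 and 0.152 for APL3.

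**Figure D5:**
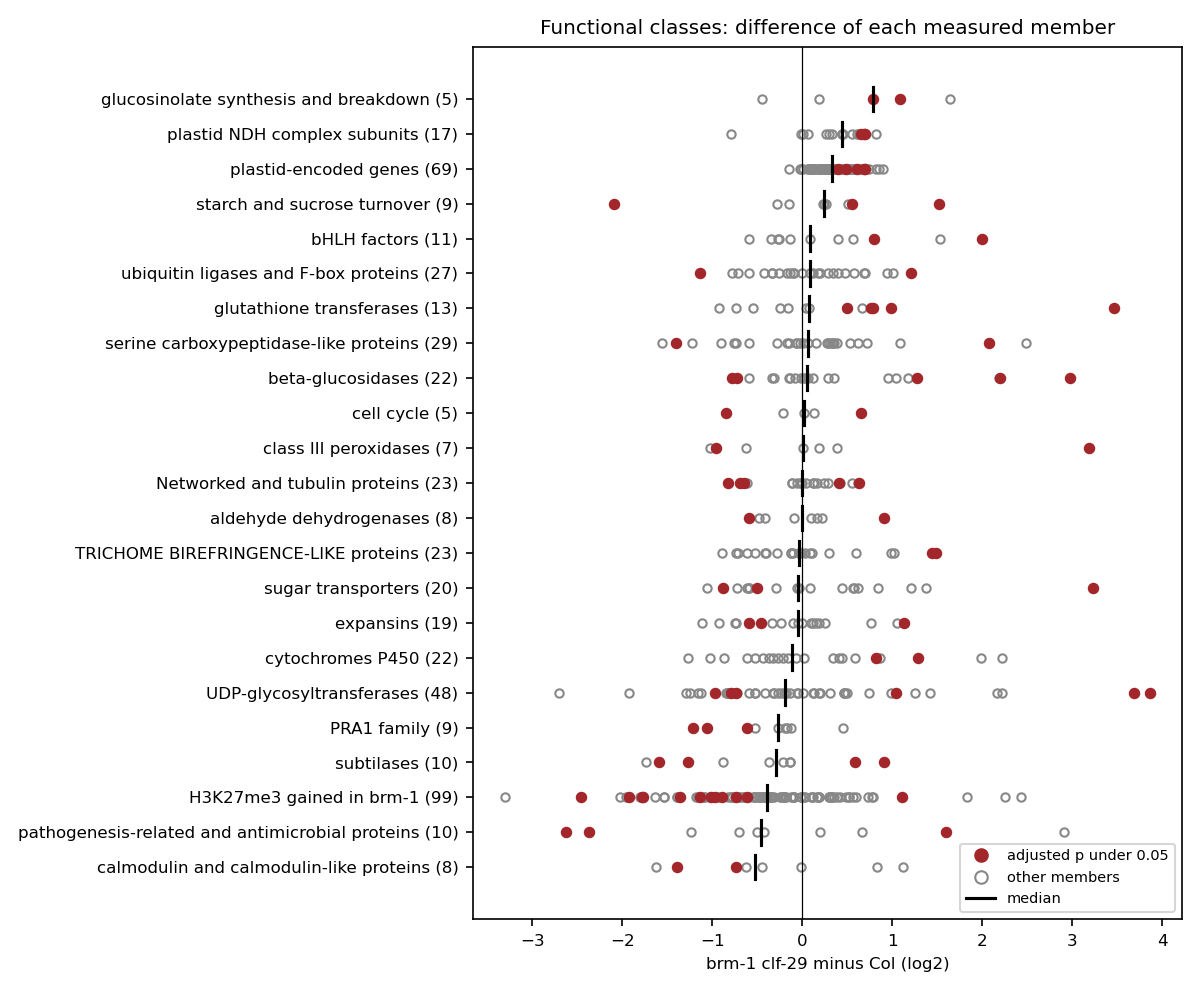
Log2 difference between brm-1 clf-29 and Col of each measured member of the larger functional classes with at least 2 called genes. Points are filled where the adjusted p was under 0.05, and a line marks the class median. Classes with fewer calls, such as MADS-box factors, are not drawn. Plastid-encoded genes sit to the right with a median of 0.33, while most other classes shown, such as UDP-glycosyltransferases at -0.19, scatter to both sides.

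Wall and defence proteins had single members with large changes. Of 10 pathogenesis-related and antimicrobial genes 1 rose and 2 fell in either fit, with a median of -0.46. PDF1.2, a defensin induced by jasmonate and ethylene, gave 6.95, 8.74 and 9.53 in Col and 6.65, 5.49 and 5.97 in the double mutant, and fell by 2.37 ± 0.54 (SE, adjusted p = 0.0251). The Col arrays spread widely and its call was lost without any 1 of 4 arrays, with an adjusted p of up to 0.105. THI2.2, a thionin, rose by 1.60 ± 0.42 (SE, adjusted p = 0.0488), with an adjusted p of up to 0.172 without 1 array. Of 7 class III peroxidases 1 rose and 1 fell in either fit, PRX25 and PRX72 (AT5G66390), which fell by 0.96 ± 0.15 (SE, adjusted p = 0.00317). Of 19 expansins 1 rose and 2 fell, and with the term for replicate 3 or the block 1 rose and 4 fell. Once array medians were set equal, 1 expansin rose and 0 fell. The next pair of lists was added after the data were seen, and their counts were the same with and without the term. Of 10 subtilases, serine proteases of the cell wall, 2 rose and 2 fell. Of 9 PRA1 family members 0 rose and 3 fell, with a median of -0.27, and PRA1.B6 fell by 1.21 ± 0.22 (SE, adjusted p = 0.00825). With each array's median set equal, 2 members fell.

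Of the regulators, SIM, an inhibitor of cyclin-dependent kinases that sets trichome endoreduplication, fell by 0.85 ± 0.15 (SE, adjusted p = 0.00787). The summed level of 4 trichome markers, of which SIM is one, was 1360 to 1470 on the linear scale in Col and 977 to 1210 in brm-1 clf-29. This sum was 1050 to 1190 in brm-1 and 1230 to 1410 in clf-29. The part of trichome number in the fall of SIM was not tested. ALC, a bHLH factor of fruit opening, gave 6.65, 6.65 and 6.54 in Col and 8.73, 9.12 and 7.99 in the double mutant, a rise of 2.0 ± 0.27 (SE, adjusted p = 0.00109). It stood at 2.04 in clf-29 and 0.23 in brm-1, so the double mutant lay at the level of clf-29. EIN3, the master factor of ethylene response, fell by 0.52 (adjusted p = 0.023, up to 0.0907 without 1 array). CML41, a calmodulin-like protein, fell by 1.39 ± 0.23 (SE, adjusted p = 0.00473).

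MADS-box factors, the family that holds many PRC2 targets, had no call in 40 measured members, 24 of them under background in both genotypes. Their median was 0.26, and with the term for replicate 3 1 rose and 2 fell. Of 8 flowering time genes 0 were called, and 1 rose and 1 fell with the term for replicate 3 or the block. Of 9 floral and meristem identity genes 1 fell, RBE, with both means under background, and 1 rose and 1 fell with the term or the block. ULT1, a Trithorax-group factor and the only measured gene of the Polycomb list, was at -0.56 (adjusted p = 0.161), and the 6 SWI/SNF subunits had 0 calls in either fit. The 5 flower and pollen markers measured were all at least 1.5-fold higher in brm-1 clf-29 and all under background in both genotypes. Their summed linear level was 33.4 to 71.1 in Col and 90.7 to 104 in the double mutant, and 0 were called, or 1 with the term. The same sum was 27.2 to 86.4 in brm-1 and 58.0 to 127 in clf-29, which reached above the double mutant.

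The study's own list of genes that gain H3K27me3 in brm-1 was split by whether the study lists the mark as lower again in brm-1 clf-29. The copy used here held 131 genes with a lower mark among 258, and the remaining 127 formed a second list, added after the data were seen. Of 50 measured genes with a lower mark 1 rose and 1 fell, with a median of -0.19. Of 49 genes not listed as lower 0 rose and 10 fell, with a median of -0.55, against 2.59% of all genes called lower. The median of the first list was -0.29 in brm-1 and 0.20 in clf-29. That of the second was -0.40 in brm-1 and -0.24 in clf-29. With the term for replicate 3 the counts were 4 higher and 6 lower in the first list and 0 and 14 in the second. Once array medians were set equal, they were 2 and 1 in the first list and 0 and 7 in the second. AT1G54740 of the second list gave 9.83, 9.61 and 8.33 in Col and 6.99, 6.83 and 6.57 in brm-1 clf-29, and fell by 2.46 ± 0.46 (SE, adjusted p = 0.00881). It was also at -2.43 in brm-1. AT5G50000 was the called gene of these lists that passed 1.5-fold in the double mutant alone, and it fell by 0.61 (adjusted p = 0.00768). The difference between the lists was not tested, and the study chose them on the same mutants in another assay.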

How the data were processed

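The study's authors hybridised labelled RNA to ATH1 arrays and deposited log2 values, made with MAS5 in the affy package with each array scaled to a trimmed mean of 500.0; no tool version was found in the labels or the methods. Of 22810 probe sets, 13513 named 1 gene, 503 several and 8794 none in the annotation used. Of those naming 1 gene, 13436 matched RefSeq genes of TAIR10.1. For 147 genes with several probe sets the brightest was kept, leaving 13355 genes. Genotype means were compared with limma 3.58.1 (lmFit, eBayes with trend) in R 4.3.3, over 12 arrays and 8 residual degrees of freedom, and adjusted by Benjamini-Hochberg. Tables and figures were made in Python 3.11.15 with pandas 2.3.3, numpy 2.4.6 and matplotlib 3.10.9. P-values measure the spread between samples labelled as biological replicates, and 3 arrays per genotype limit the precision. Deviations of samples with the same replicate number correlated at 0.2 to 0.71. Only 8 of the 12 arrays correlated best with arrays of other genotypes that bore their own number. The exceptions were all of replicates 1 and 2, so these values do not settle whether those numbers pair the arrays. The main fit did not pair them, and the replicate block did.

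Named genes were those past 1.5-fold in the double mutant alone that were called, did not overlap Col and whose brighter mean exceeded 7.13, the median over genes (12 largest rises and 12 largest falls); the 5 lowest adjusted p in each direction among all such called genes; up to 4 called members of each class with at least 2; and measured members of the flowering, floral, SWI/SNF and Polycomb lists. Others are said to be chosen later. The members and lists were chosen with earlier results of these data known. A fold is written as "at least" where 1 mean lay under the background limit of 4.71, which was then put in its place. No set test was run. On simulated data of 13355 genes with 100 changed at each size, the test recovered 39% of log2 changes of 1 and 66% of changes of 2, with 6 false among 111 calls. The simulated noise was independent between genes and arrays, with no shift of replicate 3, so these rates do not cover that structure of the real arrays. Settings varied were the normalisation, offset, filters, fits and the array left out.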

Additional observations from a re-analysis of the deposited data

How the results depend on the processing

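The called counts, 321 higher and 346 lower, rose to 608 and 691 with array weights, 661 and 734 with the replicate block, 721 and 808 with replicates 1 and 2 only, 732 and 821 with the term for replicate 3, and 735 and 781 over every probe set, and fell to 168 and 188 without the trend in eBayes. With array medians set equal 523 were higher and 258 lower, so 67.0% of calls were higher in place of 48.1%, and the median over all genes moved to 0.08. Leaving out 1 array gave 146 to 361 higher and 149 to 411 lower calls; they were 178 and 169 without Col replicate 1, 150 and 149 without Col replicate 2, 211 and 218 without Col replicate 3, 146 and 189 without brm-1 clf-29 replicate 1, and 189 and 205 without brm-1 clf-29 replicate 2. Past 1.5-fold, the counts were 2818 and 3223 over every probe set, 360 and 469 without genes under the median, 769 and 1018 with an offset of 16, and 1823 to 1975 higher and 1996 to 2309 lower without 1 array. In the double mutant alone, they were 633 and 919 over every probe set, 146 and 174 without genes under the median, 101 and 188 at 2-fold, 113 and 181 with a tighter limit on both single mutants, and 345 to 528 and 531 to 746 without 1 array. The same-sign shares in replicate 3 became 84.3% and 87.7% without dim genes. No named gene changed direction in any setting. Of 97 called genes taken by the naming rule, 45 kept the call without each array in turn, and between 14 and 46 lost it without 1 array. The call ended for 43 of them without the trend in eBayes, 18 with only the Col and brm-1 clf-29 arrays, 11 with array medians set equal, 11 after quantile normalisation, 5 with replicates 1 and 2 only, 4 with the offset and 3 with robust eBayes, and for 0 with the block, the term for replicate 3, array weights or the filter on dim genes; 52 kept it under all of these. Of the genes past 1.5-fold in the double mutant alone, 139 higher and 185 lower were under background in both genotypes.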
